A study of Danio rerio with 6 samples.

Results

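The genes described here are named for the zebrafish yolk syncytial layer, which makes apolipoproteins and plasma carriers. They encode the apolipoproteins apoa1b, apoa1a, apoa2, apoeb, apoc1 and apobb.1, the iron carrier transferrin (tfa) and the thyroid hormone carrier transthyretin (ttr). A further gene is mttp, whose product loads lipid onto apolipoprotein B. All were chosen by name, and every probe set whose gene symbol was one of these 9 names was taken. The array annotation gave 1 probe set each to 7 of the 9 genes, which makes 7 of the 15502 probe sets left once controls were removed. No probe set was named for apoa1b or ttr, so both are not analysed here. A further 2 probe sets are assigned to tfa together with gstr and were not used.

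The arrays held RNA of whole zebrafish embryos at 19 hours post fertilization, from crosses of fish heterozygous for the hanS6 allele of hand2, a transcription factor gene needed for heart, fin and pharyngeal arch formation. There were 3 arrays of hand2 mutant embryos and 3 of their wild-type siblings, each of a pool of 10 to 25 embryos. The embryos carried Tg(myl7:egfp), a green reporter driven by the heart muscle gene myl7, and mutants were picked by its expression. Sorting by phenotype leaves heterozygous and homozygous wild-type embryos together among the siblings. Apart from 3 crosses, the sources name no separate cultures, so p-values measure the spread between these pools.

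The yolk syncytial layer is the sheet of nuclei and cytoplasm between the embryo and its yolk. Until the liver and gut work, it takes up yolk lipid, packs it with apolipoproteins and exports it to the embryonic circulation. Apolipoprotein B is the scaffold of the large triglyceride-rich particles, and the smaller exchangeable apolipoproteins, such as A-I, A-II, C-I and E, coat particles, activate or restrain lipid enzymes and serve as receptor ligands. The arrays cannot show which cells a transcript came from. In whole embryos, fewer cells of a type and less RNA per cell cannot be told apart. Of the transcription factors that define the layer, mxtx2 and sox32 were too dim to be tested and mxtx1 had no probe set, so the label could not be checked against them.

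The mutated gene separated the genotypes, which serves as a check of the genotype labels. The signal of hand2 was 348.9, 447.7 and 292.2 in sibling replicates 1 to 3, and 52.8, 50.9 and 45.1 in the mutants. The 17 Tag control probe sets stand for background, and on each mutant array the brightest of them exceeded hand2, which was at least 4.35-fold lower (limma, adjusted p = 0.0051). It was 1 of 11626 probe sets past the threshold, an adjusted p under 0.05, or 0.0086%. That count was 0 without sibling replicate 1 or sibling replicate 2, and 20 without mutant replicate 3. Median signals ran from 152 to 177 on the 6 arrays. The 99th percentile of signal was lowest in mutant replicate 2 (9409) and highest in sibling replicate 2 (12771).

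None of the 7 measured genes passed that threshold, with or without the replicate number as a block or after quantile normalization, each of which called 0.0086% of all probe sets. As deposited, apoa1a, apoa2, apoeb and apoc1 had lower fitted values in mutants, and apobb.1, tfa and mttp higher ones. The median fitted difference over the 7 genes was -0.15 on the log2(signal + 16) scale, against 0.0011 over the 7356 genes tested, of which 3695 had higher fitted values (2582 with arrays scaled to a common median, where the median was -0.081). After quantile normalization, which gives all arrays one distribution of signals, the median was 0.04 and 5 of 7 had higher fitted values. For no gene did the 3 mutant arrays all lie on one side of the 3 sibling arrays, on either scale. Across the array 6.75% of probe sets were separated in this way as deposited and 6.92% after quantile normalization.

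**Figure D1:**
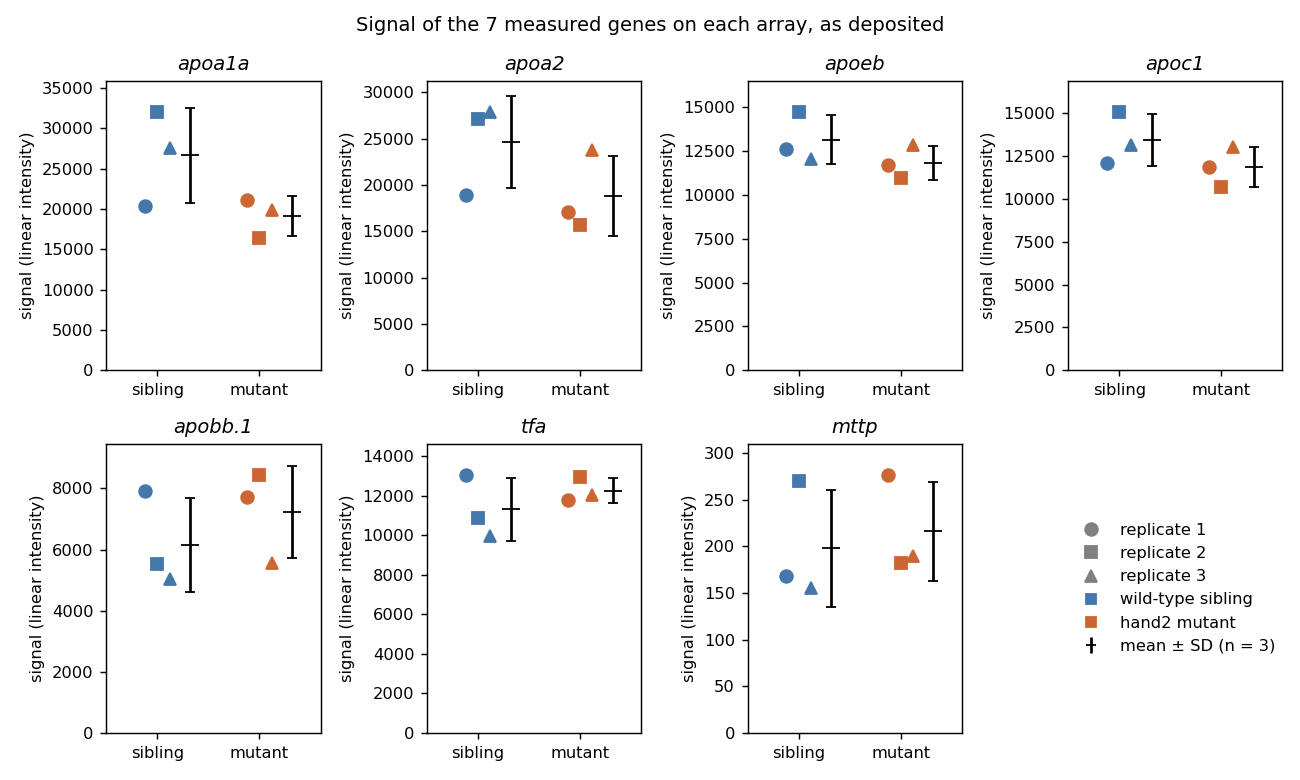
Signal (linear intensity, y axes from 0) of each measured gene on every array, siblings in blue and mutants in orange, with the replicate number as the marker shape and the mean ± SD (n = 3) in black. The genotypes overlap for all 7 genes, and the y axes differ because probe sets cannot be compared with each other in level.

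Among the exchangeable apolipoproteins, apoa1a, which encodes the main protein of high-density lipoprotein, differed most. Its signal was 20403, 32025 and 27502 in sibling replicates 1 to 3 and 21138, 16392 and 19888 in the mutants. Sibling replicates 2 and 3 were above all other arrays, and sibling replicate 1 lay within the mutant range. The sibling mean was 26643 ± 5859 and the mutant mean 19139 ± 2460 (SD, n = 3 each). The fitted difference was -0.46 with a standard error of 0.19, a ratio of 0.727, and its 95% interval without adjustment was -0.89 to -0.036 (limma, adjusted p = 0.942). It was the only one of the 7 with an unadjusted p under 0.05, a mark that 3.03% of all probe sets reached. With the replicate block none of the 7 reached that mark, against 7.41% of all probe sets, and with the block after quantile normalization apobb.1 and tfa did, against 6.92%, without passing after adjustment. With the 99th percentile of the deposited arrays, apobb.1 and tfa correlated at -0.874 and -0.778 as deposited and at -0.888 and -0.943 after quantile normalization. For the other measured genes that correlation lay between -0.537 and 0.579 after quantile normalization. How far these values follow the percentile rather than genotype was not tested. Without the block, the difference of apoa1a after quantile normalization was -0.079 with a standard error near 0.1, and its interval of -0.30 to 0.15 included 0. As deposited, the difference of apoa1a remained negative, from -0.32 to -0.64, when any single array was left out.

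The second apolipoprotein of high-density lipoprotein, apoa2, had signals of 18872, 27075 and 27865 in siblings and 17074, 15697 and 23770 in mutants. Mutant replicates 1 and 2 were the lowest arrays, and mutant replicate 3 lay above sibling replicate 1. The fitted difference was -0.39 ± 0.21 (SE) as deposited and -0.040 ± 0.064 after quantile normalization. By rank within an array, where the brightest probe set has rank 1, apoa2 stood between 25 and 49 on all 6 arrays. It held rank 38 in both sibling replicate 1 and mutant replicate 2, although the deposited signals there were 18872 and 15697. The rank of apoa1a was more variable, from 5 in mutant replicate 1 to 62 in mutant replicate 3.

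The remaining exchangeable apolipoproteins, apoeb and apoc1, had smaller fitted differences than apoa1a and apoa2 as deposited. The signal of apoeb, one of the zebrafish apolipoprotein E genes and a ligand of lipoprotein receptors, was 12654, 14740 and 12061 in siblings and 11708, 10946 and 12859 in mutants. The genotypes overlapped, with the highest array in siblings and mutant replicate 3 above sibling replicates 1 and 3. Its fitted difference was -0.15 ± 0.14 (SE) as deposited and 0.04 ± 0.084 after quantile normalization, so the sign turned. For apoc1, which encodes a small apolipoprotein that in mammals restrains lipid transfer and lipase activity, signals were 12112, 15083 and 13137 in siblings and 11889, 10731 and 13059 in mutants. Here too the sign turned, from -0.18 ± 0.14 to 0.015 ± 0.065. Between its highest and lowest array apoc1 varied 1.41-fold as deposited and 1.05-fold after quantile normalization. The 95% interval of its difference after quantile normalization, without adjustment, was -0.13 to 0.16. At ranks 130 to 137 on all arrays, apoc1 was given nearly the same value everywhere by that normalization. The narrow interval therefore does not bound a difference between the genotypes.

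Some of these genes are neighbours. In the RefSeq gene table of assembly GRCz12tu, apoeb, apoc1 and apoa2 belong to a run of neighbouring apolipoprotein genes with apoa4b.1, apoa4b.2, apoc4 and apoc2. The gene apoa4b.1 had a fitted difference of 0.22 ± 0.19 (SE) and apoc2, whose mammalian counterpart activates lipoprotein lipase, one of 0.12 ± 0.20. The brighter probe set of apoa4b.2 differed by -0.23 ± 0.21 and its second probe set by 0.096 ± 0.30, opposite in sign, and apoc4 was too dim to be tested. None of them passed (limma, adjusted p from 0.942 to 0.978), and differences between neighbours were not tested. Of the 7 measured genes, mttp alone lies on the chromosome of hand2 in that table.

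The particle scaffold gene apobb.1 differed in the other direction. Its signal was 7906, 5536 and 5031 in sibling replicates 1 to 3 and 7711, 8448 and 5559 in the mutants. Sibling replicate 1 and mutant replicates 1 and 2 were high, and both arrays of replicate 3 were low together with sibling replicate 2. The fitted difference was 0.24 ± 0.21 (SE) as deposited, a ratio of 1.18, and 0.35 ± 0.24 after quantile normalization (limma, adjusted p = 0.942 and 0.959). At replicate numbers 1 to 3 the difference was -0.036, 0.61 and 0.14. It was 0.12 without mutant replicate 2, 0.11 without sibling replicate 3 and 0.43 without sibling replicate 1.

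Transferrin carries iron in plasma, and its gene tfa followed a similar course. Signals were 13073, 10887 and 9990 in siblings and 11808, 12976 and 12026 in mutants. The 3 mutant arrays lay inside the sibling range, with sibling replicate 1 above and sibling replicates 2 and 3 below them. The fitted difference was 0.12 ± 0.14 (SE) as deposited and 0.35 ± 0.17 after quantile normalization, and it was -0.15, 0.25 and 0.27 at the 3 replicate numbers as deposited. It was 0.039 without sibling replicate 3 and 0.23 without sibling replicate 1. Among mutants the SD was 5.06% of the mean, against 14% among siblings. After quantile normalization, in contrast, the highest array exceeded the lowest 1.84-fold for tfa and 2.05-fold for apobb.1, more than the 1.31-fold and 1.68-fold seen as deposited.

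The lipid transfer gene mttp, whose product is needed to assemble particles around apolipoprotein B, was the only dim gene of the 7. Its signal was 168.8, 269.9 and 155.4 in siblings and 276.9, 181.7 and 189.7 in mutants, above the Tag controls on all 6 arrays. The high array was sibling replicate 2 in one genotype and mutant replicate 1 in the other. Differences at the replicate numbers were 0.66, -0.53 and 0.26, and the fitted value of 0.13 ± 0.25 (SE) was smaller than its error. It turned to -0.048 without mutant replicate 1 and to -0.0094 without sibling replicate 3. The 95% interval, -0.43 to 0.70, leaves room for a change in either direction.

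**Figure D2:**
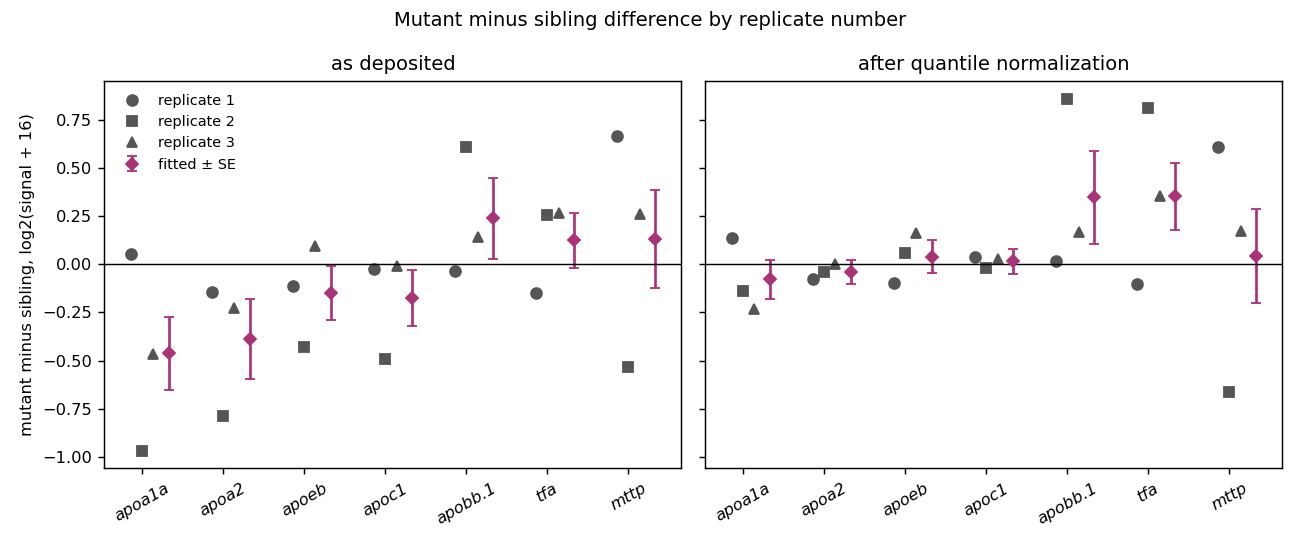
Mutant minus sibling difference in log2(signal + 16) for each gene, as deposited (left) and after quantile normalization (right). Grey markers are the pairs of arrays that share a replicate number, and purple diamonds the fitted difference ± SE; the replicate 2 pair lies lowest for apoa1a, apoa2, apoeb and apoc1 on the left and near 0 for apoa2, apoeb and apoc1 on the right.

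The brightness of these genes places them where the arrays differed in shape. Apart from mttp, the measured genes lay above 97.2% of probe sets on every array. A group of 344 other genes with a mean signal above 5000, chosen after the values of the 7 genes were seen, was used to describe that range. Of these, 315 had lower fitted values in mutants as deposited, with a median difference of -0.20, and 178 after quantile normalization, with a median of -0.0037. Quantile normalization gives all arrays the same values at the same ranks, so a set of the brightest genes is centred near 0 largely by construction. The values after that step are therefore no separate observation about these genes. Mutant replicate 2 was the lowest of the 6 arrays for 239 of the 344 genes. It was also the lowest for apoa1a, apoa2, apoeb and apoc1.

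Set against those genes, the measured genes fell into different places. The fitted differences of apoeb and apoc1 were near the middle, with 221 and 192 of 344 bright genes at or below them. For apoa1a 11 bright genes were as low or lower, and for apoa2 27 were. The difference of apobb.1 exceeded that of all 344 bright genes as deposited, and 7 reached that of tfa. After quantile normalization 1 bright gene reached apobb.1 and 1 reached tfa, whereas 77 and 122 were at or below apoa1a and apoa2. The 344 genes were not matched to each member in brightness, and their deposited differences tended to be lower among the brightest of them. These positions therefore do not compare genes of equal brightness. They are descriptions with no test, and none of the differences passed across the array.

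**Figure D3:**
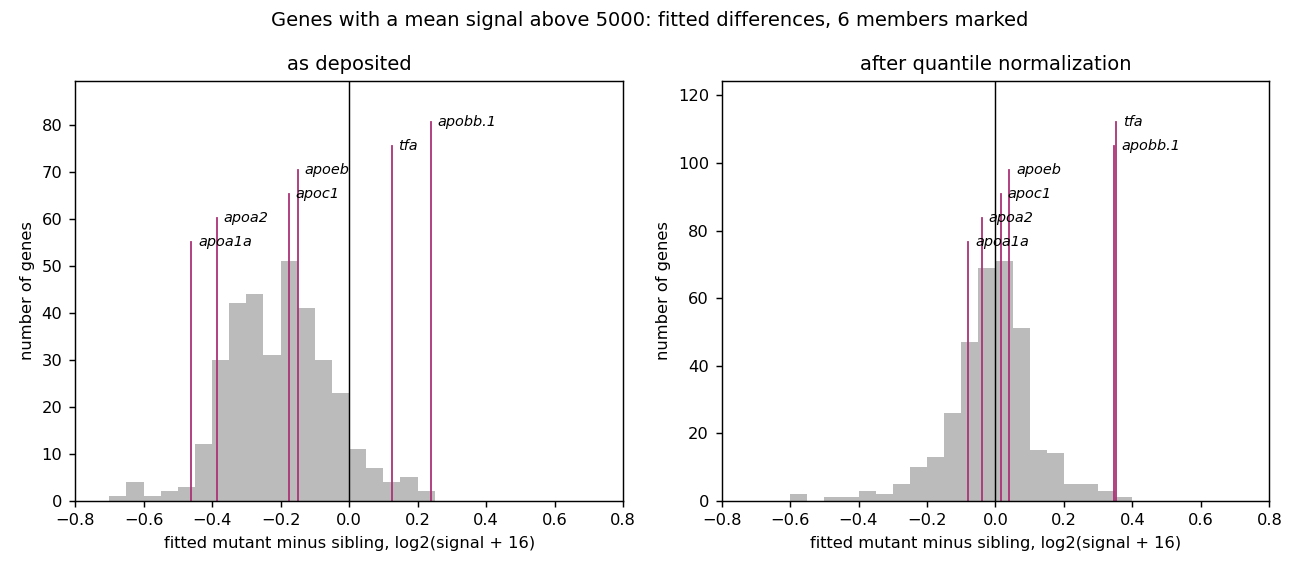
Histograms of the fitted mutant minus sibling difference, log2(signal + 16), for the 344 other genes with a mean signal above 5000, as deposited (left) and after quantile normalization (right), with 6 measured genes marked by lines whose height carries no value. The histogram is centred below 0 on the left (median -0.20) and near 0 on the right (-0.0037), with apobb.1 and tfa at its upper end in both. The centre near 0 on the right follows largely from the normalization itself.

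A ratio of 2 genes on the same array does not depend on an array-wide scale factor. It does not remove a difference between arrays in the shape of the signal distribution. As deposited, apoa1a correlated at 0.941 and apobb.1 at -0.874 with the 99th percentile of the arrays. The signal of apobb.1 was 0.388, 0.173 and 0.183 of that of apoa1a in sibling replicates 1 to 3, and 0.365, 0.515 and 0.280 in the mutants. These ratios compare arrays and not transcript levels of the 2 genes. They were higher in the mutant at replicate numbers 2 and 3 and lower at number 1, and the genotypes overlapped because sibling replicate 1 was high. Without sibling replicate 1, apobb.1 and tfa were higher in all mutant arrays than in all sibling arrays, and apoa1a, apoa2 and apoc1 lower. With that array left out 25.6% of all probe sets were separated too. Of the siblings, replicate 1 had the smallest 99th percentile, 10466 against 11814 and 12771. The ratio of apobb.1 to apoa1a was highest in mutant replicate 2, where that percentile was lowest of all arrays (9409). It was lowest in sibling replicate 2, where the percentile was highest. How far the ratios follow that percentile rather than genotype was not tested.

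Other apolipoprotein and apolipoprotein-like genes varied as widely. Of 20 listed, 14 had a probe set and 13 were tested: 5 had higher and 8 lower fitted values, with a median of -0.049, and 0 passed (0 also at an unadjusted p under 0.05). The gene apoba, an apolipoprotein B relative of apobb.1, was at 2238, 1886 and 1325 in siblings and 3200, 3257 and 1659 in mutants. The mutant was higher at all 3 replicate numbers, while mutant replicate 3 lay within the sibling range, and the fitted difference was 0.54 ± 0.28 (SE; limma, adjusted p = 0.942). With the replicate block the standard error was 0.13 (limma, adjusted p = 0.640). At the other end, apodb, an apolipoprotein D relative, differed by -0.42 ± 0.36, with the mutant lower at all 3 numbers.

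**Figure D4:**
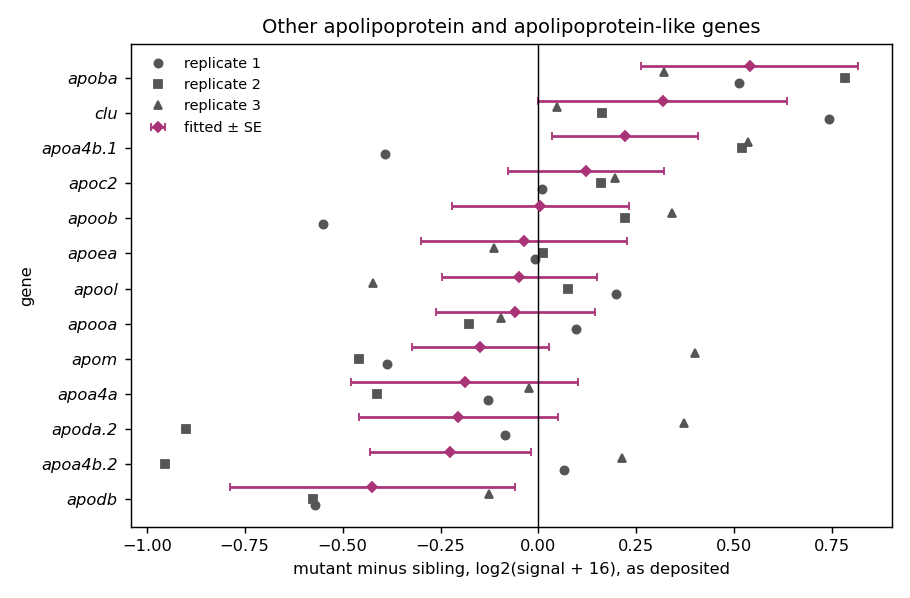
Mutant minus sibling difference in log2(signal + 16), as deposited, for the 13 tested genes of the other apolipoproteins and relatives, with grey markers for the pairs of arrays of each replicate number and purple diamonds for the fitted difference ± SE. Only for apoba, clu and apoc2 do all 3 pairs lie above 0; apoda.2 was at background in both genotypes.

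Genes that handle lipid inside the cell were evenly divided. Of 12 tested genes of lipoprotein assembly and lipid handling, 6 had higher and 6 lower fitted values (median 0.060 as deposited and -0.024 with arrays scaled to a common median). The bright fatty acid binding protein genes fabp3 and fabp1b.1 differed by -0.35 ± 0.16 and -0.35 ± 0.20 (SE), and acsl4a, an enzyme that activates fatty acids, by 0.40 ± 0.23. Of 7 lipoprotein receptor, lipase and exchange genes, 4 were higher and 3 lower as deposited (median 0.0079), 2 higher after quantile normalization (median -0.048) and 1 higher with a common median (-0.076). The endothelial lipase gene lipg was at 424, 442 and 414 in siblings and 394, 311 and 311 in mutants (-0.33 ± 0.16). It was the only one of these 7 whose arrays did not overlap, against 6.75% of all probe sets. The lipase inhibitor gene angptl4 differed by 0.37 ± 0.33 and the high-density lipoprotein receptor gene scarb1 by -0.14 ± 0.18. On the brightest probe set of each gene, none in these lists passed (limma, adjusted p = 0.942 for those named), and 0 had an unadjusted p under 0.05. Of the 4 further probe sets in the first list, 2 had an unadjusted p under 0.05, both of acsl1a, an enzyme that activates fatty acids. Of 2 in the second list 0 did, and of all probe sets 3.03%. These acsl1a probe sets differed by 0.95 ± 0.20 and 0.72 ± 0.25 (SE; limma, adjusted p = 0.942 for both) and were at or below the Tag controls on 2 and 3 of the 3 sibling arrays, while its brightest probe set differed by 0.17 ± 0.17.

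The other carriers included the retinol binding protein gene rbp4, at 7390, 9403 and 9097 in siblings and 7126, 4903 and 8098 in mutants. Mutant replicate 2 was the lowest array here too, and the fitted difference was -0.39 ± 0.20 (SE). The iron storage gene fth1a differed by -0.25 ± 0.16, and crabp2a, a retinoic acid binding protein gene, by 0.46 ± 0.32. Of 13 tested iron, retinoid and hormone carrier genes 5 had higher and 8 lower fitted values (median -0.081), 3 were higher with a common median, and 0 passed (0 also at an unadjusted p under 0.05).

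Regulators of the yolk syncytial layer, endoderm and liver had mostly higher fitted values. Of 17 tested, 14 were higher and 3 lower, with a median of 0.23 as deposited and 0.20 after quantile normalization. None passed, and 1, hnf1bb, had an unadjusted p under 0.05, against 3.03% of all probe sets. The medians at replicate numbers 1 to 3 were 0.35, 0.45 and -0.021. The gene hnf1bb, a homeobox factor of kidney and endoderm, was at background in all 3 siblings, and against the Tag controls it was 1.64-fold higher in mutants, which is no strict bound because mutant replicate 3 was at background too. The gene gata6, a zinc finger factor of endoderm and yolk syncytial layer, was at 250.6, 277.0 and 142.8 in siblings and 310.7, 440.9 and 219.0 in mutants (0.50 ± 0.30). A nuclear receptor gene of the liver type, hnf4b, differed by 0.43 ± 0.27 and was near background, at or below the Tag controls on 2 sibling arrays and 1 mutant array.

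None of the tested markers of other cells passed (limma). An unadjusted p under 0.05 was reached by 4 of 11 red blood cell, 2 of 25 epidermis and 4 of 6 heart muscle genes, against 3.03% of all probe sets. All 11 tested red blood cell genes had higher fitted values in mutants (median 0.85, summed signal 4659 to 5931 in siblings and 5315 to 17643 in mutants). Their medians at replicate numbers 1 to 3 were 1.58, 0.66 and 0.058, and 4 of the 11 were at background in siblings. Of 25 epidermis and periderm genes 6 were higher and 19 lower (median -0.15, 120783 to 149694 and 95289 to 138021), with 10 higher after quantile normalization. All 4 tested hatching gland genes were lower (median -0.13), but 5 others listed, the hatching enzyme genes among them, had no probe set. Of those tested, agr2 was also counted as epidermis, and cd63 and xbp1 belong to the 344 bright genes, of which 315 were lower. Of 6 heart muscle genes 4 were lower (median -0.96). The mutants were picked by a reporter driven by myl7, which is one of these genes, so the heart muscle values are not independent of the sorting. Of 8 macrophage and myeloid genes, which include apoeb and apoc1 themselves, 4 were higher and 4 lower (35678 to 42202 and 30067 to 35837). Nearly all of these sums came from apoeb, apoc1 and ctss2.1, which were among the 4 lower, so the sums largely repeat the members. The gene ctss2.1 was also counted among the proteases. In the macrophage and myeloid list 5 were higher after quantile normalization and 3 with a common median, and mpx, csf1ra and marco were too dim to be tested. The 3′ to 5′ log2 ratio of actc1b, a measure of RNA length, was 2.18 in mutant replicate 1 and 3.31 to 3.91 on the other arrays (mutant minus sibling -0.42, exact permutation test, p = 0.7, with 0.1 the smallest p that 3 against 3 arrays allow). That of gapdh was 1.73 in mutant replicate 1 and 1.77 to 2.08 on the other arrays (mutant minus sibling 0.036, exact permutation test, p = 0.7). The part of the values in this paragraph in the apolipoprotein values was not tested.

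By the rule for likeness, the mean of the 7 genes, each centred on its own mean of log2(signal + 16), was highest in sibling replicate 2 (0.20) and lowest in mutant replicate 2 (-0.13). The other 4 arrays lay between -0.036 and 0.015. Among 6809 other named genes above background on at least 1 array, the mean was tracked most closely by cby1, cyp2aa4, rnf130, vax2 and sae1, with Pearson correlations of 0.977 to 0.996 over the 6 arrays. The lowest correlations were those of skp2 (-0.989), cab39l (-0.979) and zfp64 (-0.978). After quantile normalization the 5 closest were dpysl3, spon1b, nsd2, grb10a and fbl (0.987 to 0.994). With 6 arrays and so many genes these are descriptions, and the 7 genes averaged did not themselves share 1 pattern.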

How the data were processed

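The deposited values are linear signal intensities, 1 per probe set and array, which the authors made with MAS5 per the submitters' processing notes. Its version, the detection calls and the genome build were not stated. The 2% trimmed mean was 500.107 to 500.133 on all 6 arrays, which shows a shared scaling target. The number of arrays limits the precision. From 15617 probe sets 115 controls were removed, and the lowest 25% by mean log2 signal (below about 46.09) were left out, which left 11626. All 7 member probe sets passed this filter. Symbols were updated by gene identifier to RefSeq for 10711 of 10795 probe sets with 1 symbol; 135 had several and 4572 none. Each gene was represented by its brightest probe set.

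The fit used log2(signal + 16), limma 3.58.1 and R 4.3.3, with 2-sided moderated tests and an intensity trend in eBayes, and p-values were adjusted by Benjamini-Hochberg over all 11626 probe sets. The offset understates changes of dim genes. The fit was tested on simulated data with independent noise on each array. That simulation held no array-wide effect, difference in signal distribution or link between replicate numbers, so it does not cover those features of these arrays. A gene was at background in a genotype if none of its 3 signals there exceeded the highest Tag control on that array. Such a gene has only a bound on its fold: in the dim genotype each signal below the control was replaced by the control before the log2(signal + 16) means were compared. Deviations from the genotype means correlated at 0.193, 0.119 and 0.482 within replicate numbers 1 to 3. All exceeded 0.1, so the numbers were taken as pairs on the evidence of the data, although for only 4 of 6 arrays was the best match across genotypes the array of the same number. The main fit did not use these pairs. Fitted differences, standard errors and limma p-values come from that unpaired fit unless the replicate block or another alternative is named. Named genes were the members, hand2, the genes of lowest p in each list, at most 3, and the 5 most and 3 least like the members' mean, without LOC, zgc:, si: or wu: names. Others were singled out after their values were seen: apoa4b.2 and apoc2 as neighbours of members, acsl1a for its dimmer probe sets, and clu, apoda.2, mxtx1, mxtx2, sox32, mpx, csf1ra and marco for their place in a list. The members and lists were chosen with earlier results of these data known. Alternatives were other offsets, filters and scalings, the replicate block, array weights, no intensity trend and left-out arrays. No sequences are shown.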

Additional observations from a re-analysis of the deposited data

How the results depend on the processing

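None of the 7 genes passed the threshold under any of 19 alternatives, with adjusted p from 0.405 to 1. The signs of apoa1a, apoa2, apobb.1 and tfa were kept under all of them. The signs of apoeb and apoc1 turned after quantile normalization (0.04 and 0.015), also in the fit with quantile normalization and the replicate block (0.04 and 0.015). For mttp the difference was -0.048 to 0.36 with single arrays left out, negative without mutant replicate 1 or sibling replicate 3 (-0.0094), and -0.13 without both arrays of number 1. The cause was not tested. The median of the 7 genes, -0.15, ran from -0.26 to 0.051 over 27 alternatives. It was -0.15 with the replicate block, which changed no call of a member, 0.04 after quantile normalization, and -0.24 with arrays scaled to a common median. It was -0.065 without sibling replicate 2, -0.095 without mutant replicate 2, and -0.0098 without both arrays of number 2. Without sibling replicate 3 it was -0.010 after quantile normalization.

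The count of probe sets past the threshold, 1 of 11626, was 0 with the lowest 50% left out, 0 to 20 with single arrays left out (20 without mutant replicate 3), and 0 without both arrays of number 1, 2 or 3. The count of members whose arrays did not overlap, 0, was 0 to 5 with single arrays left out, where 12.1% to 28.2% of all tested probe sets were separated. It was 5, 1 and 3 without both arrays of numbers 1, 2 and 3, for which the share of all probe sets is not given here. With fewer arrays, separation is easier to reach. Of the 344 bright genes, 315 had lower fitted values, and 299 to 319 with single arrays left out. After quantile normalization, which centres such a set near 0 largely by construction, 178 did. These alternatives for the bright genes were chosen after seeing the data.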

Other observations

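A list of plasma and liver protein genes, not all of them secreted, and one of the proteases that digest yolk held no gene past the threshold. Of 13 tested plasma and liver protein genes 4 had higher and 9 lower fitted values (median -0.063), with 6 higher after quantile normalization. The largest difference was that of itih2, whose product binds hyaluronan in the matrix, at 2054, 1189 and 1098 in siblings and 2141, 3069 and 1775 in mutants (0.70 ± 0.26, SE; limma, adjusted p = 0.942). Of the 13 only itih2 had an unadjusted p under 0.05, against 3.03% of all probe sets. Like apobb.1 it was highest in mutant replicate 2 and high in sibling replicate 1, and the genotypes overlapped through sibling replicate 1. The fibrinogen gene fgg differed by -0.29 ± 0.17, and hgd, an enzyme of tyrosine breakdown, by -0.29 ± 0.19 near background.

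Of 13 tested lysosomal and yolk platelet protease genes 9 had higher and 4 lower fitted values (median 0.069), and 0 had an unadjusted p under 0.05. With arrays scaled to a common median 6 were higher (median -0.018). The 3 mutant arrays of lgmn, a lysosomal protease gene, at 863, 1335 and 912, lay above the siblings at 859, 693 and 767, with sibling replicate 1 only just below mutant replicate 1. Across the array 6.75% of probe sets were separated in this way. The fitted difference of lgmn was 0.39 ± 0.19 (SE; limma, adjusted p = 0.942). The cathepsin genes ctsc and ctsk differed by 0.50 ± 0.26 and 0.39 ± 0.22.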
